A study of Homo sapiens with 12 samples.

Results

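A probe set on a gene array is a group of short probes read as 1 value, and most sets stand for 1 gene. On the array used here, 1388 of the 32321 probe sets were annotated with 2 or more gene symbols, and these multi-gene sets were the members examined. A further 19158 sets carried exactly 1 symbol and 11775 carried none. The members were chosen from the platform annotation alone, with no measured value. They held 978 distinct combinations of symbols and 2201 distinct symbols. Of them, 771 sets named 2 symbols, 201 named 3 and 416 named 4 or more, up to 18.

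The study profiled RNA from A375 and A2058, human melanoma cell lines whose labels both give BRAF V600E, the activating kinase mutation that vemurafenib inhibits. Each line was measured in DMSO and with vemurafenib, in 4 groups of 3 arrays. Vemurafenib was used at 1 µM for 72 h with renewal every 24 h, and controls received an equal volume of DMSO. The source of the A375 samples was named as A375p, and the treatment text on all 12 samples names A375p only, so that the dose and time of the A2058 arrays rest on the same text. Nothing in the labels says that the 3 arrays of a group came from separate cultures, so the p-values measure the spread between these samples, which may be technical. Each line is a single model, and in bulk RNA fewer cells of a type and less RNA per cell cannot be told apart.

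Genes share a probe set for several reasons. Members of a duplicated family, such as the HLA genes that present antigen, can be too alike in sequence for short probes to separate; a processed pseudogene is a reverse-transcribed copy of a gene's mRNA; and a read-through symbol names a transcript that runs from one gene into its neighbour. Vemurafenib blocks signalling from mutant BRAF through MEK to ERK, which in melanoma cells lowers genes that ERK drives and is known to alter antigen presentation. By RefSeq positions, the symbols of 703 sets (50.6%) lay apart on 1 chromosome, those of 340 sets (24.5%) on several chromosomes, and those of 335 sets (24.1%) in overlapping gene models at 1 locus. The remaining 10 sets (0.72%) could not be placed.

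Promoter pairs show how alike, or unlike, the annotated promoter windows of genes behind 1 value can be. They are given because the sets on these genes carry large drug responses described further on. Each is the 250 bases before the annotated start in RefSeq GRCh38.p14, 5′ to 3′ along the gene's strand, with capitals marking GAAA followed by any 2 bases and a further GAAA, the core of the interferon-stimulated response element, and CCAAT, both searched on both strands (they read TTTC, 2 bases, TTTC and ATTGG on the other strand).
GBP1 (chr1:89065209-89065458, minus strand): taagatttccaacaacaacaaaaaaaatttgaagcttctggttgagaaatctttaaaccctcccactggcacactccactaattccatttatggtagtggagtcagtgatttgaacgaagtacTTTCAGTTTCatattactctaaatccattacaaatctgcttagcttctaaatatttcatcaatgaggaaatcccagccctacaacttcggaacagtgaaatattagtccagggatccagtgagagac
GBP3 (chr1:89022867-89023116, minus strand): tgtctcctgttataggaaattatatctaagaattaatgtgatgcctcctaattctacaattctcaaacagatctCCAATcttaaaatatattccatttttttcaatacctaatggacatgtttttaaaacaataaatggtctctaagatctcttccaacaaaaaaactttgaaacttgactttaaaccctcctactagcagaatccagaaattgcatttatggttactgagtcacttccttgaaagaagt
HLA-DQA1 (chr6:32637156-32637405, plus strand): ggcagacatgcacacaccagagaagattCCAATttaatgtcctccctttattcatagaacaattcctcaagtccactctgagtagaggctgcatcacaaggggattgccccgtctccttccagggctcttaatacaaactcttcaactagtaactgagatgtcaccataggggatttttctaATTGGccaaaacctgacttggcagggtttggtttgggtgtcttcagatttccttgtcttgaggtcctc
HLA-DQA2 (chr6:32741141-32741390, plus strand): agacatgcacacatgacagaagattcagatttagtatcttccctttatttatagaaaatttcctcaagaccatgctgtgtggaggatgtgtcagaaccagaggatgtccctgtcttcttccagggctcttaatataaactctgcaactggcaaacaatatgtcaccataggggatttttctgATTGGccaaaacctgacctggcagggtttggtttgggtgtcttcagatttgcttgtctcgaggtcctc
HSPA1A (chr6:31815293-31815542, plus strand): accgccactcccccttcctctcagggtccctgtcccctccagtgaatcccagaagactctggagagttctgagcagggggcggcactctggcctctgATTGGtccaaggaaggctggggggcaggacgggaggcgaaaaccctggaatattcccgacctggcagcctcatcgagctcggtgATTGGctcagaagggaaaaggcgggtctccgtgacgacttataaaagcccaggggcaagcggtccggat
HSPA1B (chr6:31827488-31827737, plus strand): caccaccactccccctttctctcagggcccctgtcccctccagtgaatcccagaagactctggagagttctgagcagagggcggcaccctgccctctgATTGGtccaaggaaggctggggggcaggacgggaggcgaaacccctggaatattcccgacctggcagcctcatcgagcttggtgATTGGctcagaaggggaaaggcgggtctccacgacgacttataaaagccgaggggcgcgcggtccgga
Identity is the share of the 250 bases left after the edit distance, the fewest base changes, insertions and deletions between windows, is taken off. It was 93.6% for HSPA1A and HSPA1B, 82.8% for HLA-DQA1 and HLA-DQA2, and 48.4% for GBP1 and GBP3. GBP1 and GBP3 both lie on chromosome 1, and their value was below the 82.8% median of the most alike pairs of genes apart on 1 chromosome. It was near the median for overlapping gene models and for genes on several chromosomes, 46.4% in each. The response element core occurred in the GBP1 window, 127 bases before the start, and not in the GBP3 window. The last bases of the GBP3 window resemble those just before the GBP1 core. The GBP3 window thus stops short of the matching position, and the bases beyond it were not examined. Among all promoter windows of this length, 3.07% of 27305 held this core, and among windows of the symbols on multi-gene sets 3.93% of 1271 did. CCAAT was held by 33.0% and 38.0%. Over 470 combinations with at least 2 promoters, the most alike pair reached 90% identity in 123 (26.2%). This share was 40.6% for genes apart on 1 chromosome, 21.2% for genes on several chromosomes and 2.94% for overlapping gene models.

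Replicate arrays correlated at r = 0.990 to 0.998 across the multi-gene sets. Vemurafenib replicate 1 of A375 stood somewhat apart, with an array weight of 0.191 and the lowest correlations, and the median SD of the multi-gene sets was 0.0992 log2 units in that group against 0.0533 to 0.0671 in the other groups. Without this array, more sets passed the test in every comparison (185 against 150 rises in A375, for example). All 10 genes of an ERK output list were at a log2 level of 8 or more in DMSO in both lines, against 5 and 4 with vemurafenib in A375 and A2058. Of 9 measured melanocyte lineage markers, 3 were at 8 or more in A375 DMSO and 6 in A2058 DMSO, and 5 were under 6 in A375, among them TYR, PMEL and MLANA. No fibroblast, epithelial or endothelial marker reached 8 in any group.

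The question put to each line was which sets differed between vemurafenib and DMSO. In A375, 150 multi-gene sets rose and 199 fell at an adjusted p under 0.05 (limma with Benjamini-Hochberg adjustment over all 32321 sets), 25.1% of the members. The same share of all probe sets was called, 25.1%, with 12.1% up and 13.0% down, and 34.5% of the 1-symbol sets were called. In A2058, 148 rose and 122 fell, 19.5% of the members against 17.5% of all sets (9.34% up and 8.12% down) and 24.6% of the 1-symbol sets. A change of at least 2-fold was reached by 12 rises and 19 falls in A375 and by 3 rises and 17 falls in A2058, against 2.80% and 1.28% of all sets in either direction. Changes are log2 differences of group means, given with their standard errors, and n = 3 arrays in every group.

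The median log2 level of the members was 5.75, between 5.25 for all sets and 6.02 for 1-symbol sets. Of the 638 members with a mean of at least 6, 286 were called in A375 (44.8%, against 49.7% of all sets at that level), and of the 750 under 6, 63 were called (8.4%). At a mean of at least 6 the members were also below all sets in A2058 (34.6% against 36.6%), in the difference between responses (33.4% against 36.5%) and between the untreated lines (60.5% against 63.1%), although over all levels their shares were the higher ones in these 3 comparisons. The sets on overlapping gene models were called in 31.9% of cases in A375, those on several chromosomes in 30.6% (32 up and 72 down) and those on genes apart on 1 chromosome in 19.3%. In A2058 the shares were 23.9%, 22.4% and 15.8%. The median levels of these 3 arrangements were 6.41, 6.60 and 5.29, and the part of level in the shares was not tested.

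Across the lines, 48 of the 1388 members rose in both and 69 fell in both, while 20 rose in A375 and fell in A2058 and 15 did the reverse. Among the 19158 1-symbol sets, 2293 were called in the same direction in both lines and 725 in opposite directions. Opposite calls were thus not more frequent among the members. All 35 members with opposite calls also passed the test of the difference between the responses. Both lines share their spread in the fit, so opposite calls make this nearly certain, and it adds no separate support. Calls in A375 alone numbered 197 and in A2058 alone 118, and 921 sets were called in neither. The test of the difference itself, the A375 response minus the A2058 response, called 261 members (102 positive and 159 negative), 18.8% against 18.3% of all sets (8.27% positive and 10.0% negative) and 26.6% of 1-symbol sets. Differences of at least 2-fold numbered 20 positive and 21 negative, against 2.74% of all sets.

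HLA genes formed the family with the clearest opposite responses. HLA class I and class II molecules present peptides to T cells, and class II is normally found on antigen-presenting immune cells and on many melanomas. Of the 16 HLA sets, 15 rose in A375 and none fell, while in A2058 none rose and 11 fell. The median change was 0.67 in A375 and -0.42 in A2058, against 0.00 over all sets in each line. In A375 12.1% of all sets rose, and in A2058 8.12% fell. Many of these sets carry the same symbols, placed on several versions of the same region, so they are not independent measurements of 16 genes. Without vemurafenib replicate 1 of A375, 15 still rose there, with a median of 0.77.

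The HLA-DQA2/HLA-DQA1 set with the largest response (8179489) read 9.08, 9.02 and 9.07 in DMSO and 10.64, 10.91 and 10.89 with vemurafenib in A375. In A2058 it read 9.73, 10.04 and 9.86 in DMSO and 8.27, 8.30 and 7.73 with vemurafenib. The treated arrays lay wholly above the controls in A375 and wholly below them in A2058. The changes were 1.76 ± 0.14 (SE, limma adjusted p = 2.17e-06) in A375 and -1.78 ± 0.14 (SE, limma adjusted p = 3.91e-06) in A2058, and the difference was 3.53 ± 0.20 (SE, limma adjusted p = 2.51e-07). HLA-DQA1 encodes the alpha chain of the class II molecule DQ, and HLA-DQA2 is its close relative. The other HLA-DQA2/HLA-DQA1 sets changed by 1.72 and 0.49 in A375 and by -0.73 and -0.34 in A2058, so the size of the response differed between sets with the same symbols while the direction did not. A 1-symbol set for HLA-DQA1 changed by 0.13 ± 0.04 (SE, limma adjusted p = 0.0301) in A375 and -0.36 in A2058, in the same directions and by less.

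Sets on HLA-DRA/HLA-DQA1, of which HLA-DRA encodes the alpha chain of DR, moved in the same opposite way. One of them (8178193) read 10.24, 9.91 and 10.29 in DMSO and 7.92, 7.80 and 7.63 with vemurafenib in A2058, with no overlap, a change of -2.36 ± 0.16 (SE, limma adjusted p = 1.14e-06). In A375 it read 9.55, 9.73 and 9.55 in DMSO and 9.82, 10.51 and 10.31 with vemurafenib, a change of 0.60 ± 0.16 (SE, limma adjusted p = 0.0162). The A375 call of this set was not stable, since leaving out any 1 of A375 DMSO replicates 1 and 3 or A375 vemurafenib replicates 2 and 3 ended the call (limma adjusted p 0.0552 to 0.0618). The set 8118548 of the same symbols changed by 1.28 ± 0.23 (SE, limma adjusted p = 0.00133) in A375 and -1.34 ± 0.23 (SE, limma adjusted p = 0.00155) in A2058. HLA-DRB1/HLA-DQB1 (8125447), on the beta chains of DR and DQ, changed by 0.91 ± 0.17 (SE, limma adjusted p = 0.00202) and -1.41 ± 0.17 (SE, limma adjusted p = 0.000144). Its levels already differed between the untreated lines, 6.38 in A375 and 9.37 in A2058. HLA-DQB2/HLA-DQB1 (8180022) changed by 0.80 in A375 and -0.77 in A2058. Of the 12 class II sets, 11 rose in A375 and 10 fell in A2058; the class II set that was called in neither line carried HLA-DRB6, HLA-DRB5, HLA-DRB4, HLA-DRB3, HLA-DRB1 and HLA-DQB1 (8178802), and another set with these symbols (8180003) changed by 0.41 and -0.43.

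The 4 class I sets rose in A375, and 1 of them fell in A2058. The HLA-F/HLA-B set (8117760) read 4.46, 4.60 and 4.44 in DMSO and 6.59, 6.39 and 6.37 with vemurafenib in A375, a rise of 1.95 ± 0.09 (SE, limma adjusted p = 1.72e-08). In A2058 it read 4.86, 4.52 and 4.67 in DMSO and 4.51, 4.67 and 4.62 with vemurafenib, where the groups overlapped and the change was -0.08 ± 0.09 (SE, limma adjusted p = 0.71). HLA-B is a classical class I molecule and HLA-F a non-classical one. A second HLA-F/HLA-B set (8179019) rose by 1.06 in A375, and the HLA-C/HLA-B sets rose by 0.56 (8178498) and 0.50 (8179731). The class I response therefore differed between lines in size (interaction 2.03 ± 0.13 for HLA-F/HLA-B), with the A2058 values near 0.

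CD74/ROS1 (8115147) followed the class II pattern. CD74 is the invariant chain that chaperones class II molecules, and ROS1 is a receptor tyrosine kinase; the 2 genes lie on different chromosomes and the set cannot separate them. It read 11.80, 11.82 and 11.82 in DMSO and 12.12, 12.10 and 12.14 with vemurafenib in A375 and 10.91, 10.84 and 10.85 in DMSO and 9.70, 9.55 and 9.66 with vemurafenib in A2058. The groups did not overlap in either line, with changes of 0.31 ± 0.04 (SE, limma adjusted p = 0.000151) and -1.23 ± 0.04 (SE, limma adjusted p = 4.58e-09). Blood and immune markers were checked beside these results. PTPRC, which marks all white blood cells, was at 4.15 to 4.17 in every group. Of the 6 markers measured, 4, 4, 4 and 5 were under 6 in A375 DMSO, A375 vemurafenib, A2058 DMSO and A2058 vemurafenib. CD68, a lysosomal protein, alone reached 8, at 9.24 and 10.16 in A375 and 8.32 and 8.53 in A2058. LYZ went from 7.83 to 6.56 in A375 and from 6.91 to 4.79 in A2058.

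The sets with the largest rises in A375 were on genes known to be induced by interferon. USP41P/USP18 (8074606), where USP18 removes the ubiquitin-like protein ISG15 and USP41P is a related copy, read 7.51, 7.33 and 7.41 in DMSO and 10.25, 10.47 and 10.50 with vemurafenib in A375. In A2058 it read 6.63, 6.57 and 6.67 in DMSO and 6.62, 6.68 and 6.55 with vemurafenib. The A375 groups were far apart and the A2058 groups overlapped. The change was 2.99 ± 0.07 (SE, limma adjusted p = 7.02e-11), or 7.94-fold, in A375 and 0.00 ± 0.07 (SE, limma adjusted p = 0.984) in A2058. A 1-symbol USP18 set changed by 3.27 ± 0.07 (SE, limma adjusted p = 2.5e-11) in A375.

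GBP1P1/GBP3/GBP1 (7917516), on guanylate-binding proteins of the cell's own defence and a pseudogene of GBP1, read 7.52, 7.57 and 7.64 in DMSO and 10.09, 10.26 and 10.31 with vemurafenib in A375. In A2058 it read 7.92, 7.81 and 7.97 in DMSO and 7.29, 7.42 and 7.34 with vemurafenib. Treated arrays lay above the controls in A375 and below them in A2058. The changes were 2.64 ± 0.06 (SE, limma adjusted p = 9.83e-11) and -0.55 ± 0.06 (SE, limma adjusted p = 0.000105), and the difference between them, 3.19 ± 0.09 (SE, limma adjusted p = 1.15e-09), was among the largest of all members. A 1-symbol set for GBP3 changed by 0.14 ± 0.10 (SE, limma adjusted p = 0.426) in A375. IL4I1/NUP62 (8038487), on an amino acid oxidase secreted by immune cells and a nuclear pore protein whose gene models overlap, rose by 1.20 ± 0.10 (SE, limma adjusted p = 2.44e-06) in A375 and changed by 0.11 in A2058.

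Several groups of sets fell strongly in both lines. CNTNAP3B/CNTNAP3P2/CNTNAP3, on cell adhesion proteins of the neurexin-related family, had the largest fall of all members. Its set 8161460 read 8.35, 8.32 and 8.42 in DMSO and 4.42, 4.48 and 4.58 with vemurafenib in A375. In A2058 it read 7.61, 7.57 and 7.58 in DMSO and 5.53, 5.64 and 5.14 with vemurafenib. No treated array reached the controls in either line, and the fall was larger in A375. The changes were -3.88 ± 0.10 (SE, limma adjusted p = 1.86e-10) and -2.15 ± 0.10 (SE, limma adjusted p = 6.2e-08). The other sets of these symbols changed by -2.83 (8161288) and -2.41 (8155460) in A375 and by -1.27 and -1.20 in A2058. The promoter windows of CNTNAP3 and CNTNAP3B had an identity of 47.6%. The median of the most alike pairs was 82.8% for genes apart on 1 chromosome and 46.4% for genes on several chromosomes. Identity was taken over fixed windows, so a shift between annotated starts lowers it, and such a shift was not examined.

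C1QTNF3-AMACR/AMACR (8111430), on a peroxisomal racemase of branched fatty acids and the read-through that contains it, read 10.22, 10.20 and 10.23 in DMSO and 7.35, 7.45 and 7.56 with vemurafenib in A375 and 9.43, 9.40 and 9.47 in DMSO and 7.90, 7.93 and 7.85 with vemurafenib in A2058. The groups did not overlap in either line. It fell by 6.79-fold in A375 and 2.91-fold in A2058, with log2 changes of -2.76 ± 0.05 (SE, limma adjusted p = 8.89e-12) and -1.54 ± 0.05 (SE, limma adjusted p = 3e-09).

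MIR622/KRT18 (7969574) pairs a microRNA with keratin 18, a filament protein of simple epithelia; which of them the probes read was not examined, and the mature microRNA is shown for its set's large fall. It has 21 bases and its seed, bases 2 to 8, is in capitals (chr13:90231242-90231262, plus strand, GRCh38.p14).
hsa-miR-622: aCAGUCUGcugagguuggagc
The set read 10.73, 10.85 and 10.77 in DMSO and 8.63, 8.24 and 8.30 with vemurafenib in A375 and 8.99, 8.93 and 8.67 in DMSO and 7.25, 7.75 and 7.30 with vemurafenib in A2058, with no overlap in either line. It changed by -2.40 ± 0.14 (SE, limma adjusted p = 1.52e-07) in A375 and by -1.43 ± 0.14 (SE, limma adjusted p = 2.21e-05) in A2058. The 1-symbol KRT18 sets changed in the same direction, by -1.79 (7955637) and -2.58 (8154725) in A375 and by -1.41 and -1.66 in A2058. No set made up of microRNAs alone was called in either line.

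Thymosin beta 4 sets fell in A375, and 1 of them fell in A2058. TMSB4X encodes a small protein that binds actin monomers, and its processed copies lie on other chromosomes. TMSB4XP6/TMSB4XP2/TMSB4XP1/TMSB4X (8158240) read 8.44, 8.43 and 8.11 in DMSO and 6.18, 6.83 and 6.16 with vemurafenib in A375 and 9.90, 9.67 and 9.80 in DMSO and 9.57, 9.80 and 9.65 with vemurafenib in A2058. The A375 groups did not overlap and the A2058 groups did. The changes were -1.94 ± 0.16 (SE, limma adjusted p = 3.23e-06) and -0.12 ± 0.16 (SE, limma adjusted p = 0.782), with a difference of -1.82 ± 0.23 (SE, limma adjusted p = 0.000156). All 4 TMSB4X sets fell in A375, by a median change of -1.68, and all 4 passed the test of the difference between lines. In A2058 the set on TMSB4Y/TMSB4XP6/TMSB4XP2/TMSB4XP1/TMSB4X (8166072) fell, with a change of -0.23 ± 0.06, the only one called there. All 4 were lower in A375 than in A2058 in DMSO, with a median difference of -1.64. The 1-symbol set for TMSB4XP2 changed by 0.13 ± 0.13 (SE, limma adjusted p = 0.602) in A375.

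Sets that join differently named genes can hide which gene moved, and 1-symbol sets for their parts gave further readings. ELAC2/HMGA2 (7956867) joins a tRNA-processing enzyme with an architectural chromatin protein that is often high in tumours. It read 9.28, 9.21 and 9.06 in DMSO and 7.41, 7.58 and 7.35 with vemurafenib in A375 and 6.80, 6.80 and 6.72 in DMSO and 6.39, 6.13 and 6.43 with vemurafenib in A2058, with no overlap in either line. The changes were -1.74 ± 0.09 (SE, limma adjusted p = 3.68e-08) and -0.46 ± 0.09 (SE, limma adjusted p = 0.00295). A 1-symbol ELAC2 set, at a level of 9.14, changed by 0.09 ± 0.04 (SE, limma adjusted p = 0.156) in A375 and 0.03 in A2058. The pair therefore moved while a set on ELAC2 alone did not pass the test.

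EBF1/PDGFRB (8115543) joins a transcription factor of B cell and stromal development with the beta receptor for platelet-derived growth factor. It read 6.68, 6.54 and 6.62 in DMSO and 6.0, 5.82 and 5.69 with vemurafenib in A375 and 9.15, 9.06 and 9.25 in DMSO and 7.42, 7.30 and 7.31 with vemurafenib in A2058. Treated arrays were lower in both lines without overlap, with changes of -0.78 ± 0.08 (SE, limma adjusted p = 1.42e-05) and -1.81 ± 0.08 (SE, limma adjusted p = 2.75e-08). A 1-symbol PDGFRB set moved by 0.37 ± 0.05 (SE, limma adjusted p = 0.000298) in A375, in the opposite direction, and by -0.03 in A2058. LOC344967/ACOT7 (8099965), on an acyl-CoA thioesterase and a copy of it, changed by -1.46 ± 0.09 in A375 and -0.51 ± 0.09 in A2058, and a 1-symbol ACOT7 set changed by -0.83 and -0.27, both called and smaller. WDFY1/FAF2 (8059361), an endosomal adaptor and a ubiquitin-binding protein of the endoplasmic reticulum, rose in both lines, by 0.66 ± 0.04 and 0.82 ± 0.04. The 1-symbol FAF2 sets changed by -0.07 and 0.06 in A2058, neither called.

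Further falls seen in A375 were on non-coding and duplicated genes. LINC01123/LINC01106 (8044346), long non-coding RNAs, read 7.51, 7.29 and 7.36 in DMSO and 5.04, 5.39 and 5.74 with vemurafenib in A375 and 4.32, 4.59 and 4.83 in DMSO and 4.21, 4.31 and 4.35 with vemurafenib in A2058. The A375 groups were apart and the A2058 groups overlapped, with changes of -1.99 ± 0.16 (SE, limma adjusted p = 2.58e-06) and -0.29 ± 0.16 (SE, limma adjusted p = 0.327). SNORD64/PWAR5 (7981943), a small nucleolar RNA and its host transcript in the imprinted Prader-Willi region, changed by -1.38 ± 0.09 (SE, limma adjusted p = 4.07e-07) in A375 and 0.18 ± 0.09 in A2058. CASTOR2/CASTOR3P (8140249), on a regulator upstream of mTORC1 and a related pseudogene, fell, with a change of -1.24 ± 0.05 in A375 and rose by 0.48 ± 0.05 in A2058. The difference was -1.72 ± 0.07 (SE, limma adjusted p = 1.28e-08). A 1-symbol CASTOR3P set changed by -0.34 and 0.21. FCGR2C/FCGR2B (7906767), on low-affinity IgG receptors, changed by -0.94 ± 0.09 in A375 and -0.17 in A2058. It was the sole called set among 19 sets on KIR, LILR, KLR, FCGR and SIGLEC receptors. These 19 sets were dim, with a median level of 4.53, and of all members with a mean under 6 only 8.4% were called in A375.

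The heat shock sets rose in A375. HSPA1A and HSPA1B encode the same inducible HSP70 chaperone from neighbouring genes. HSPA1B/HSPA1A (8179322) read 8.24, 8.29 and 8.33 in DMSO and 9.09, 9.49 and 9.52 with vemurafenib in A375 and 10.54, 10.35 and 10.49 in DMSO and 10.44, 10.50 and 10.39 with vemurafenib in A2058. Treated A375 arrays lay above their controls and still below every A2058 array. The changes were 1.08 ± 0.10 (SE, limma adjusted p = 6.41e-06) in A375 and -0.02 ± 0.10 (SE, limma adjusted p = 0.954) in A2058. The other HSPA1 set (8179324) changed by 0.88 ± 0.04 and -0.07 ± 0.04. In DMSO both were higher in A2058, by -2.17 and -1.85 as A375 minus A2058.

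Histone sets were called in both directions. Most histone genes of these clusters are made in S phase, and their mRNAs lack poly(A) tails. Of 21 sets, 3 rose and 6 fell in A375, and 4 rose and 1 fell in A2058. Over all sets, 12.1% rose and 13.0% fell in A375, and 9.34% rose and 8.12% fell in A2058. The histone sets were bright, with a median level of 9.31. In A375 42.9% and in A2058 23.8% of them were called, against 49.7% and 36.6% of all sets with a mean of at least 6. H4C15/H4C14 (7919627) read 7.63, 7.67 and 7.64 in DMSO and 8.79, 8.99 and 9.04 with vemurafenib in A375, a rise of 1.29 ± 0.09 (SE, limma adjusted p = 6.14e-07); the groups did not overlap. In A2058 its change was 0.24 ± 0.09 (SE, limma adjusted p = 0.103). The H4C14 and H4C15 promoter windows were identical at 100% of positions. A much brighter 1-symbol H4C14 set, at 11.36, changed by -0.23 ± 0.06 (SE, limma adjusted p = 0.012) in A375, in the opposite direction. H2BC18/H2BP1/H2BC21 (7919606) rose by 0.85 ± 0.09 in A375 and by 0.32 ± 0.09 in A2058, but in A2058 leaving out any 1 of A2058 DMSO replicates 1 and 3 or A2058 vemurafenib replicates 1, 2 and 3 ended the call (limma adjusted p 0.0572 to 0.134). H3C10/H2AC13 (8117583) changed by -0.63 ± 0.08 in A375 and 0.08 in A2058. Of 6 H3 sets, 4 fell and 1 rose in A375.

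Families built from segmental duplications, long recent copies spread over the genome, differed between lines. Of 171 such sets, 6 rose and 23 fell in A375, while 36 rose and 3 fell in A2058, and the difference between responses was called positive in 3 and negative in 40. Over all sets, 9.34% rose and 8.12% fell in A2058, and 8.27% of differences were positive and 10.0% negative. Against all sets (12.1% up and 13.0% down in A375), the family had fewer rises in A375, 6 of 171, and falls near the share of all sets; without vemurafenib replicate 1 of A375 there were 10. The following subgroups were formed by symbol after the values were seen. Their counts were not tested, and single sets from them are shown as examples with their own values.

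NBPF genes, which carry the Olduvai repeats that expanded in the human lineage, fell in A375. Of 13 NBPF sets, 8 fell and 1 rose in A375, 1 rose in A2058, and 8 differed between the lines. Of them, 10 carry the same 12 symbols, NBPF25P, NBPF19, NBPF20, NBPF10, NBPF8, NBPF9, NBPF15, NBPF11, NBPF12, NBPF3, NBPF1 and NBPF14. The set 7904976 of this group read 10.06, 9.72 and 10.22 in DMSO and 8.89, 9.25 and 9.22 with vemurafenib in A375 and 9.80, 9.77 and 9.63 in DMSO and 10.07, 10.17 and 9.57 with vemurafenib in A2058. The A375 groups were apart and the A2058 groups overlapped, with changes of -0.88 ± 0.17 (SE, limma adjusted p = 0.00196) and 0.21 ± 0.17 (SE, limma adjusted p = 0.562). The set of the group that moved furthest in A375 (7919271) changed by -1.10 ± 0.44 and did not pass the test there (limma adjusted p = 0.101). NBPF6/NBPF22P/NBPF4 (7918203) rose, by 0.30 ± 0.04 in A375 and 0.21 ± 0.04 in A2058.

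Of the GUSBP sets, on pseudogenes of beta-glucuronidase, 7 of 11 fell in A375, 1 rose in A2058 and 7 differed between lines. The set with the largest fall (8177544), on LINC00680-GUSBP4, GUSBP19, GUSBP17, GUSBP1, GUSBP3, GUSBP2, GUSBP15 and GUSBP14, changed by -0.94 ± 0.10 (SE, limma adjusted p = 2.91e-05) in A375 and 0.09 ± 0.10 in A2058. A 1-symbol set for GUSB itself changed by -0.26 ± 0.05 (SE, limma adjusted p = 0.00127) in A375 and -0.11 in A2058. GTF2IRD2B/GTF2IRD2, on transcription factors of the Williams region, rose in A375 on both of its sets, by 1.33 ± 0.19 (SE, limma adjusted p = 0.000224) (8133549) and 0.92 ± 0.06 (8140170), and in A2058 by 0.41 ± 0.06 on the second alone.

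SMG1, WASHC2 and NPIP sets rose in A2058. SMG1 is the kinase that starts nonsense-mediated decay of mRNA, and its pseudogenes were duplicated together with it. Of 11 SMG1 sets, 8 rose and 1 fell in A2058, and 1 fell in A375. The SMG1 set with the largest rise (8000217), on BOLA2-SMG1P6, SMG1P3, SMG1P1, SMG1P5, BOLA2, SMG1P2 and SMG1, read 8.66, 8.66 and 8.36 in DMSO and 9.14, 9.40 and 9.33 with vemurafenib in A2058 and 8.14, 8.38 and 8.25 in DMSO and 7.76, 8.50 and 8.41 with vemurafenib in A375. The A2058 groups did not overlap and the A375 groups did. The changes were 0.73 ± 0.17 (SE, limma adjusted p = 0.0103) and -0.03 ± 0.17 (SE, limma adjusted p = 0.942). A 1-symbol SMG1 set changed by 0.08 ± 0.05 (SE, limma adjusted p = 0.386) in A2058 and fell in A375, with a change of -0.35 ± 0.05 (SE, limma adjusted p = 0.000303). WASHC2A/WASHC2C, on a subunit of the WASH complex that sorts endosomal cargo, rose by 0.73 ± 0.12 (SE, limma adjusted p = 0.000983) (7927233), 0.66 ± 0.06 (7927560) and 0.48 ± 0.08 (7927323) in A2058. Of 15 NPIP sets, 8 rose in A2058 and 1 fell in A375, or none without its vemurafenib replicate 1.

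TBC1D3 sets named up to 13 symbols of a hominoid family of Rab regulators. Of 8 sets, 2 fell in A375, or 1 without its vemurafenib replicate 1, and 2 rose in A2058. The set with the largest difference between lines (8014603), on TBC1D3I, TBC1D3E, TBC1D3D, TBC1D3L, TBC1D3K, TBC1D3G, TBC1D3H, TBC1D3, TBC1D3P2, TBC1D3C, TBC1D3B and TBC1D3F, read 7.11, 6.81 and 6.70 in DMSO and 5.98, 6.07 and 6.21 with vemurafenib in A375 and 7.15, 5.78 and 6.53 in DMSO and 7.13, 7.35 and 7.18 with vemurafenib in A2058. Its changes were -0.79 ± 0.26 (SE, limma adjusted p = 0.0486) and 0.74 ± 0.26 (SE, limma adjusted p = 0.0856), and the difference was -1.52 ± 0.37 (SE, limma adjusted p = 0.0132). The spread among its arrays was large, and the A2058 groups overlapped. Of 38 GOLGA sets, on golgin copies, 4 fell and none rose in A375, and 5 rose and 2 fell in A2058; 7 fell in A375 without its vemurafenib replicate 1. None of 10 SPDYE sets was called in either line. They were dim, with a median level of 5.03, and of all members with a mean under 6 only 8.4% and 6.53% were called in A375 and A2058.

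FAM86 sets fell in both lines and further in A2058. The family includes EEF2KMT, a methyltransferase of elongation factor 2, and many copies. The set 8149365, on FAM86JP, FAM86HP, FAM86DP, FAM86B2, FAM86FP, FAM86C2P, FAM86B3P, EEF2KMT, FAM86B1 and FAM86C1P, read 8.22, 8.33 and 8.25 in DMSO and 7.17, 7.24 and 7.24 with vemurafenib in A2058 and 8.95, 9.05 and 8.98 in DMSO and 8.77, 8.95 and 8.70 with vemurafenib in A375. Groups did not overlap in either line, by a narrow margin in A375. The changes were -1.05 ± 0.06 (SE, limma adjusted p = 2.88e-07) and -0.19 ± 0.06 (SE, limma adjusted p = 0.04). In A375 leaving out any 1 of A375 DMSO replicates 1, 2 and 3, A375 vemurafenib replicates 1 and 3, A2058 DMSO replicates 1 and 3 or A2058 vemurafenib replicates 1, 2 and 3 ended the call (limma adjusted p 0.0506 to 0.151). All 4 FAM86 sets were called down in both lines, with median changes of -0.80 in A2058 and -0.32 in A375, and 3 of 4 remained called in A375 without its vemurafenib replicate 1. A 1-symbol EEF2KMT set changed by -0.39 ± 0.08 (SE, limma adjusted p = 0.00355) in A2058 and by -0.02 ± 0.08 (SE, limma adjusted p = 0.935) in A375, where it was not called. FAM27 sets, on a family of duplicated non-coding genes, fell in A375 in 4 of 7 cases. FAM27E2/FAM27E3 (8161499) changed by -1.14 ± 0.05 (SE, limma adjusted p = 2.57e-08) in A375 and -0.29 ± 0.05 in A2058. The promoter windows of these genes had an identity of 98.8%.

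A part of the ribosomal protein sets fell with vemurafenib, by small amounts. Ribosomal proteins build the translation machinery, and processed pseudogenes of them are scattered across the genome. Of 29 sets, none rose and 12 fell in A375, and 1 rose and 10 fell in A2058, with a median change of -0.17 in each line. Over all sets 13.0% fell in A375 and 8.12% in A2058, but these sets were bright, with a median level of 10.31, and 26.6% and 17.6% of all sets with a mean of at least 6 fell; the part of level in the counts was not tested. RPL17-C18orf32/RPL17 (7903582) changed by -0.28 ± 0.05 (SE, limma adjusted p = 0.00142) in A375 and -0.28 ± 0.05 (SE, limma adjusted p = 0.00263) in A2058, and a 1-symbol RPL17 set by -0.30 and -0.29. The largest fall in A375, RPL36A-HNRNPH2/RPL36A (8138361), was -0.55 ± 0.15, but leaving out any 1 of A375 DMSO replicates 1 and 3 or A375 vemurafenib replicate 3 ended the call (limma adjusted p 0.0558 to 0.0708).

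Among 20 sets on translation factors and RNA-binding proteins, 3 rose and 7 fell in A375 and 2 fell in A2058, or 4 in A2058 without vemurafenib replicate 1 of A375. Their median level was 9.90, and the falls in A2058 were near the 8.12% of all sets and below the 17.6% of sets with a mean of at least 6. In A375, 13.0% of all sets and 26.6% of those with a mean of at least 6 fell. The part of level in the A375 falls was not tested. RBMXL1/RBMX (8175420), on a splicing regulator and its processed copy, fell, with a change of -0.55 ± 0.06 (SE, limma adjusted p = 1.5e-05) in A375. HNRNPA1P6/HNRNPA1P10/HNRNPA1L2/HNRNPA1 (7916562), on a nuclear RNA-binding protein that controls splicing, fell, with a change of -0.54 ± 0.07 (SE, limma adjusted p = 0.000124) there and changed by -0.15 ± 0.07 in A2058. PGAM4/PGAM1 sets, on the glycolytic enzyme phosphoglycerate mutase, fell in both lines. The set 7958152 changed by -0.69 ± 0.07 (SE, limma adjusted p = 4.74e-05) in A2058 and -0.43 ± 0.07 in A375, and 7965480 by -0.50 ± 0.03 and -0.31 ± 0.03. SMN2/SMN1 (8177647), on the survival motor neuron protein, fell, with changes of -0.26 ± 0.05 in A375 and -0.31 ± 0.05 in A2058.

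Zinc finger sets mostly rose where they were called: 6 of 29 rose and 1 fell in A375, and 9 rose and none fell in A2058, where 12.1% and 9.34% of all sets rose. These KRAB-type factors silence transposons and lie in tandem clusters. ZNF761/ZNF525/ZNF845/ZNF765 (8030980) rose by 0.63 ± 0.13 (SE, limma adjusted p = 0.00309) in A375. ZNF284/ZNF223 (8029360) rose by 0.55 ± 0.06 (SE, limma adjusted p = 2.76e-05) in A375 and 0.27 ± 0.06 (SE, limma adjusted p = 0.0086) in A2058. Of 46 sets on olfactory, taste and vomeronasal receptors, 6 rose in A375 and 4 in A2058, and none fell; the rises were near the shares of all sets, 12.1% and 9.34%. OR7E pseudogene sets made up 4 of those in A375 and 3 in A2058. One of them (8156319), on OR7E37P, CCZ1P-OR7E38P, OR7E5P, DAPL1, OR7E24, OR7E47P, OR7E12P and OR7E14P, changed by 0.26 ± 0.05 (SE, limma adjusted p = 0.00381) and 0.37 ± 0.05 (SE, limma adjusted p = 0.000582); DAPL1, a gene known in melanocytes, is among its symbols.

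The rises that led in A2058 were on genes of several kinds. TBC1D7-LOC100130357/TBC1D7 (8123961), on the third subunit of the TSC complex that restrains mTORC1, read 6.58, 6.52 and 6.55 in DMSO and 7.96, 7.83 and 7.70 with vemurafenib in A2058 and 5.53, 5.46 and 5.54 in DMSO and 5.75, 5.70 and 5.80 with vemurafenib in A375. Both lines rose without overlap, A2058 by more, with changes of 1.28 ± 0.06 (SE, limma adjusted p = 4.5e-08) and 0.24 ± 0.06 (SE, limma adjusted p = 0.00981). GANC/CAPN3 (7983054), on an alpha-glucosidase and a calpain known from muscle and from melanocytes, changed by 1.19 ± 0.06 (SE, limma adjusted p = 5.88e-08) in A2058 and 0.45 ± 0.06 (SE, limma adjusted p = 8.53e-05) in A375. PIR-FIGF/PIR (8171435), on the nuclear protein pirin, changed by 0.92 ± 0.05 (SE, limma adjusted p = 3.65e-07) and 0.47 ± 0.05 (SE, limma adjusted p = 4.58e-05).

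The largest rise in A2058 was not steady. The keratin-associated set 8007112, on KRTAP4-7, KRTAP4-9, KRTAP4-8, KRTAP4-11, KRTAP4-2, KRTAP4-5, KRTAP4-4, KRTAP4-12 and KRTAP4-6, read 6.07, 6.24 and 6.04 in DMSO and 7.67, 7.37 and 8.22 with vemurafenib in A2058 and 8.09, 7.34 and 6.74 in DMSO and 8.89, 7.16 and 8.39 with vemurafenib in A375. The A2058 groups did not overlap, but the A375 arrays scattered widely and overlapped. Its A2058 change was 1.64 ± 0.43 (SE, limma adjusted p = 0.0201), and leaving out any 1 of A2058 DMSO replicates 1 and 3 or A2058 vemurafenib replicates 1 and 3 ended the call (limma adjusted p 0.0512 to 0.0833). It was the only one of 18 sets on keratins and keratin-associated proteins to be called in either line. Their median level was 5.25, and of all members with a mean under 6 only 8.4% and 6.53% were called in A375 and A2058. FOXO3B/FOXO3 (8013307), on a stress-responsive transcription factor and its copy, rose by 0.77 ± 0.05 (SE, limma adjusted p = 1.71e-06) in A2058 and 0.34 ± 0.05 in A375. A 1-symbol FOXO3 set changed by 0.18 in A2058 and 0.13 in A375, neither called. CAV2/LOC105375463 (8135587), on a caveolar membrane protein, rose by 0.59 ± 0.07 (SE, limma adjusted p = 0.000148) in A2058 and changed by -0.04 in A375. LOC653653/AP1S2 (8017210), on a subunit of the AP-1 clathrin adaptor, rose by 0.59 ± 0.07 in A2058 and fell in A375, with a change of -0.31 ± 0.07.

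Among falls in A2058, TLCD4-RWDD3/TLCD4 (7903162), on a membrane protein with a TLC domain, read 8.43, 8.58 and 8.55 in DMSO and 7.16, 7.16 and 7.08 with vemurafenib in A2058 and 6.15, 6.0 and 5.95 in DMSO and 5.21, 5.30 and 5.17 with vemurafenib in A375. Neither line overlapped, and the changes were -1.39 ± 0.06 (SE, limma adjusted p = 3.32e-08) and -0.81 ± 0.06 (SE, limma adjusted p = 1.41e-06). IQCJ-SCHIP1/SCHIP1 (8083677), on a schwannomin-interacting protein, changed by -1.33 ± 0.06 (SE, limma adjusted p = 5.2e-08) in A2058 and -0.11 ± 0.06 (SE, limma adjusted p = 0.256) in A375. TCAF2P1/TCAF2 (8136954), on a regulator of the TRPM8 channel, fell, with a change of -1.01 ± 0.07 in A2058 and -0.29 ± 0.07 in A375. POM121C/POM121 (8133331), on nuclear pore membrane proteins, fell, with a change of -1.25 ± 0.33 in A2058, but leaving out any 1 of A2058 DMSO replicate 3 or A2058 vemurafenib replicate 3 ended the call (limma adjusted p 0.0788 to 0.0885).

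For read-through symbols, the set on the upstream gene was compared with the set on the downstream gene, each called an end here. Such a set also carries the symbol of that gene alone, whose own transcripts it may read. Whether a read-through transcript was present was not examined. For 64 read-through symbols, 1 multi-gene set lay on the upstream gene and 1 on the downstream gene. In A375 neither end was called for 27, 1 end for 26, both in the same direction for 6 and both in opposite directions for 5. In A2058 the numbers were 29, 25, 5 and 5. The median absolute difference between the ends was 0.19 in A375 and 0.12 in A2058.

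P2RX5-TAX1BP3 had the widest gap between ends that were both called. P2RX5 is an ATP-gated ion channel and TAX1BP3 a small PDZ protein. The P2RX5 end (8011415) read 7.07, 6.81 and 7.05 in DMSO and 6.16, 6.05 and 5.97 with vemurafenib in A375, and the TAX1BP3 end (8011407) read 8.40, 8.55 and 8.55 in DMSO and 9.62, 9.70 and 9.74 with vemurafenib. The upstream end was lower and the downstream end higher with vemurafenib, both without overlap. The changes were -0.92 ± 0.07 (SE, limma adjusted p = 1.69e-06) and 1.18 ± 0.05 (SE, limma adjusted p = 1.61e-08). In A2058 they were -0.77 ± 0.07 and 0.59 ± 0.05, again opposite.

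RPL17-C18orf32 also had ends of opposite direction in both lines, with the C18orf32 end (8023246) at 0.23 ± 0.06 in A375 and 0.30 ± 0.06 in A2058. CHURC1-FNTB, on a zinc finger protein and the beta subunit of farnesyltransferase, rose at both ends in A375, by 0.71 ± 0.14 and 0.61 ± 0.06. In A2058 the CHURC1 end rose by 0.45 ± 0.14 and the FNTB end changed by -0.27 ± 0.06. UBE2F-SCLY, on a NEDD8-conjugating enzyme and a selenocysteine lyase, fell at both ends in both lines. In A375 its ends changed by -1.31 ± 0.06 (UBE2F) and -0.33 ± 0.04 (SCLY), and in A2058 by -0.39 ± 0.06 and -0.41 ± 0.04. TMEM256-PLSCR3, whose downstream gene is a phospholipid scramblase of mitochondria, changed at the PLSCR3 end (8012197) by -0.32 ± 0.08 in A375 and 0.57 ± 0.08 in A2058, with a difference of -0.88 ± 0.11 (SE, limma adjusted p = 0.000143).

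A table limited to 1-symbol sets would miss part of these responses. For 808 of the 1388 members no symbol had a 1-symbol set, and 580 had at least 1. Of the 349 sets called in A375, 180 (51.6%) had none, among them 16 of the 31 with at least a 2-fold change. In A2058 these were 145 of 270 (53.7%) and 11 of 20. CNTNAP3B/CNTNAP3P2/CNTNAP3, C1QTNF3-AMACR/AMACR, HSPA1B/HSPA1A and GTF2IRD2B/GTF2IRD2 had no 1-symbol set for any of their symbols.

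The 580 members formed 953 pairs with 1-symbol sets. In A375 both sets of a pair were called in the same direction in 98 and in opposite directions in 11, while the multi-gene set alone was called in 144, the 1-symbol set alone in 130 and neither in 570. In A2058 the numbers were 66, 3, 140, 110 and 634. Being called on one side and not on the other does not show that 2 sets differed, and that difference was not tested.

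Sets with the same symbols did not always move together. There were 250 combinations on more than 1 set, 660 sets in all. At least 1 set was called for 82 of them in A375 and 69 in A2058, and every set was called in a single direction for 22 and 12. The median range of the change within a combination was 0.16 in A375 and 0.13 in A2058. The 1 combination called in opposite directions was the CT45A cluster in A375, on CT45A8, CT45A9, CT45A10, CT45A7, CT45A2, CT45A1, CT45A6, CT45A5 and CT45A3, cancer-testis genes on the X chromosome. Its set 8175344 changed by 0.59 ± 0.08 and 8175353 by -0.28 ± 0.09. For the latter, leaving out any 1 of A375 DMSO replicates 1, 2 and 3, A375 vemurafenib replicates 1 and 2, A2058 DMSO replicate 2 or A2058 vemurafenib replicates 1 and 2 ended the call (limma adjusted p 0.0544 to 0.13).

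Several families were not called in either drug comparison. These were the sets on microRNAs alone (19), immunoglobulin and T cell receptor segments (17), SPANX, SSX, VCX, CTAG and NXF2 (16), PRAMEF (12), defensins (10), pregnancy-specific glycoproteins (9), interferon alpha genes (4) and chemokines (4). These sets were dim, with family medians of 4.17 to 4.97, and only 8.4% and 6.53% of all members with a mean under 6 were called in A375 and A2058. Without vemurafenib replicate 1 of A375, 1 set each was called of the SPANX group and the immunoglobulin group in A375 and of the microRNAs in A2058. Across all members, 483 sets in A375 and 385 in A2058 had an unadjusted p under 0.05 in limma. Among 21 sets on small nuclear, nucleolar and other small RNAs, 3 (14.3%) rose in A375, near the 12.1% of all sets that rose there. None was called in A2058, where 17.5% of all sets were, and the median level of the 21 sets was 5.55. SNORD3D/SNORD3C/SNORD3B-2/SNORD3A/SNORD3B-1 (8013329), on the U3 RNA of ribosome assembly, rose by 0.53 ± 0.10 (SE, limma adjusted p = 0.00153) in A375.

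The untreated lines differed more than either drug comparison. In DMSO, 299 members were higher in A375 and 229 higher in A2058, 38.0% of the members against 33.3% of all sets (16.8% higher in A375 and 16.5% higher in A2058) and 44.2% of 1-symbol sets. At least 2-fold differences numbered 52 and 27, against 4.37% of all sets in either direction. Cancer-testis genes, which normal tissues other than the germ line mostly silence, led the sets that were higher in A375. The CT45A set 8175353 read 10.85, 10.90 and 10.89 in A375 and 4.29, 4.41 and 4.67 in A2058, a difference of 6.42 ± 0.09 (SE, limma adjusted p = 1.6e-12). XAGE1A/XAGE1B (8172766) was higher in A375 by 3.69 ± 0.06, and BAGE2/BAGE5 (8069487) by 2.78 ± 0.19. An SSX set (8172787), on SSX2B, SSX4B, SSX9P, SSX8P, SSX7, SSX6P, SSX3, SSX4, SSX5, SSX2 and SSX1, was higher in A2058, with a difference of -1.86 ± 0.09 (SE, limma adjusted p = 2.91e-08) as A375 minus A2058. These families were therefore not all higher in 1 line. XAGE1A/XAGE1B also fell in A375 with vemurafenib, with a change of -0.67 ± 0.06.

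Other sets that were higher in untreated A375 were CCDC169-SOHLH2/SOHLH2 (7970975), on a germ cell transcription factor, by 3.30 ± 0.11, TM4SF19-DYNLT2B/TM4SF19 (8093104), on a tetraspan membrane protein, by 2.57 ± 0.11, and LINC01123/LINC01106 (8044346) by 2.81 ± 0.16. A zinc finger set (8027352), on ZNF730, ZNF728, ZNF676, ZNF430, ZNF208, ZNF99, ZNF85 and ZNF43, was higher by 2.43 ± 0.27. All 6 SNORD116 sets, imprinted small nucleolar RNAs of the Prader-Willi region, were higher in A375, by a median of 1.33, and none was called in a drug comparison. Higher in A2058 were EBF1/PDGFRB (-2.54), TLCD4-RWDD3/TLCD4 (-2.49), PPT2-EGFL8/EGFL8/PPT2 (8179451, -1.99), on a lysosomal thioesterase and its neighbour, and C8orf44-SGK3/SGK3 (8146717, -1.87), on a kinase related to AKT. C8orf44-SGK3/SGK3 also rose with vemurafenib in both lines, by 0.38 ± 0.07 in A375 and 0.57 ± 0.07 in A2058.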

How the data were processed

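The 12 arrays (Affymetrix Human Gene ST type, labelled with the Ambion WT Expression kit per the labels' protocols) were deposited as log2 expression values of 32321 probe sets by the authors, with R 3.0.1 and affy named in the submitters' processing notes. The normalization method is not given in the sources used here. Values ran from 3.24 to 13.08, array medians from 5.19 to 5.30. Precision is set by the count of arrays, 3 per group. Symbols came from the platform annotation, in which 5000 of 5016 symbol entries matched RefSeq (GRCh38.p14); 1 set on Y-linked genes only is not described.

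Values were used as deposited. limma 3.58.1 (R 4.3.3) fitted 4 group means over all 12 arrays, with contrasts for each line, their difference and the untreated lines, and Benjamini-Hochberg adjustment over all sets (threshold 0.05). The script was tested on simulated data of all 32321 sets, with 50 sets changed at each size. In A375 it recovered 40%, 68%, 88% and 100% of changes of 0.25, 0.5, 1 and 2 log2 units. Far fewer sets changed there than were called here, so these shares need not hold for these data. A family needed at least 2 matching symbols that made up 50% or more of a set's symbols; remaining sets were grouped as read-through, small RNA with host, shared stem or differently named. Sets named were, per drug comparison, the 12 largest rises and falls among called sets without overlap of the groups, 8 of each sign for the other comparisons (1 set per combination of symbols) and up to 3 per family; subgroups were formed after values were seen. Members and lists were chosen with earlier results of these data known. Where several sets stood at the end of a read-through symbol, the brightest was used. Alternatives were other centring, filters, array weights, a replicate block, a trended and robust variance prior, fits per line, the sets tested, a fold threshold, and each array left out.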

Additional observations from a re-analysis of the deposited data

Results flagged for a closer look

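Of the multi-gene sets whose response in A375 differed from that in A2058 by the test of the difference itself (limma, A375 response minus A2058 response, adjusted p under 0.05), the 16 given here had the 8 largest differences of each sign, with sets of the same symbols counted once by the largest. Positive differences were 3.53 for HLA-DQA2/HLA-DQA1 (8179489), 3.19 for GBP1P1/GBP3/GBP1, 2.99 for USP41P/USP18, 2.96 for HLA-DRA/HLA-DQA1 (8178193), 2.32 for HLA-DRB1/HLA-DQB1, 2.03 for HLA-F/HLA-B (8117760), 1.57 for HLA-DQB2/HLA-DQB1 (8180022) and 1.54 for CD74/ROS1. Of these, 5 are HLA sets and CD74 is the class II chaperone; USP41P/USP18 and HLA-F/HLA-B had A2058 changes of 0.00 and -0.08, near 0, and in the other 6 the A2058 change was negative and called. Negative differences were -1.82 for TMSB4XP6/TMSB4XP2/TMSB4XP1/TMSB4X (8158240), -1.72 for CNTNAP3B/CNTNAP3P2/CNTNAP3 (8161460), -1.72 for CASTOR2/CASTOR3P, -1.70 for LINC01123/LINC01106 (8044346), -1.63 for TMSB4Y/TMSB4XP6/TMSB4XP2/TMSB4XP1/TMSB4X (8166072), -1.56 for SNORD64/PWAR5, -1.52 for the TBC1D3 set 8014603 and -1.28 for ELAC2/HMGA2. For the CNTNAP3, ELAC2/HMGA2 and TMSB4Y-containing sets both lines fell and A375 fell further. CASTOR2/CASTOR3P fell in A375 and rose in A2058.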

How the results depend on the processing

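The 8 counts of called multi-gene sets stayed within 1.5 times of the values given under every alternative except the fold threshold. With a change of at least 2-fold also required, they fell to 12 rises and 19 falls in A375, 3 and 17 in A2058, 20 positive and 21 negative differences between responses, and 52 and 27 sets higher in untreated A375 and A2058, by the construction of that rule. Leaving out each array in turn gave 132 to 185 rises and 177 to 221 falls in A375, 113 to 169 and 94 to 142 in A2058, 85 to 130 and 140 to 174 differences, and 256 to 325 and 198 to 260 sets between untreated lines, with the highest value in each case without A375 vemurafenib replicate 1. Centring each array on its median gave 112 rises and 128 falls in A2058, where the values as deposited gave 148 and 122; it moved the median of all sets by under 0.04. Same-numbered arrays showed no clear pairing: their deviations correlated at -0.333 to 0.265, with a median of -0.051, against -0.421 to 0.441 for other pairs. With 3 arrays per group, these values cannot exclude pairing. A replicate block gave 151 and 194 calls in A375, 133 and 111 in A2058, 91 and 150 differences, and 279 and 221 between untreated lines. Of 143 changes of named sets tested, 121 kept their call and direction under every alternative but the fold threshold, which was not applied to single sets, 22 lost the call under at least 1, and 0 reversed; median centring ended 12 of these calls, the fit on the arrays of 1 line 11 and the replicate block 6, and the cause was not tested. With 3 arrays per group, small changes can be missed. In simulated data of this size, 28% of changes of 0.25 log2 units were recovered in A2058, and 7.5% of the calls in A375 were false. The simulation changed only 50 sets at each size, far fewer than were called here, and gave all groups the same spread. Its shares therefore need not hold for these data.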
